A study of Mus musculus with 24 samples.

Results

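Potassium channel genes were followed by symbol. All rows of both FPKM tables whose symbol starts with Kcn were taken, which gave 94 of the 22562 genes, and a gene was kept where its FPKM was at least 1 in at least 2 libraries of either tissue. That left 73 genes, and 21 were too low. The kept genes comprised 26 of 30 voltage-gated pore subunits, 9 of 10 silent voltage-gated subunits, 12 of 16 auxiliary subunits, 6 of 8 calcium- or sodium-activated pore subunits, 11 of 15 inward rectifiers, 8 of 14 tandem-pore channels and Kcnrg, which encodes no channel subunit. Just inside the rule stood Kcnq1 and Kcnj8, whose second-highest library held 1.10 and 1.33 FPKM. Just outside stood Kcnu1 and Kcnd1 with 0.988 and 0.888 FPKM.

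Total stranded RNA was sequenced from whole cerebellum and whole cortex of mice of either sex, aged 10 to 12 months. Double mutants (Atm Nes-cre; Aptx-/-) had lost Atm, a DNA damage kinase, where Nestin-cre is active, that is in neural progenitors and the neurons and glia they form, and had lost Aptx, a DNA end-processing enzyme, in every cell. They gave 6 cerebellum and 6 cortex libraries. The single mutants gave cerebellum libraries only, 2 from Aptx-/- and 2 from Atm Nes-cre animals, and controls, whose alleles the labels do not give, gave 4 libraries of each tissue. The design asks which channel genes differ between the mutants and controls, whether the double mutant differs from the single mutants, and whether the change differs between cerebellum and cortex.

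Potassium channels set the resting potential of neurons and glia and end each action potential. Purkinje cells, the output neurons of the cerebellar cortex, fire spontaneously at high rates and rely on fast Kv3 channels, calcium-activated channels and A-type Kv4 channels to keep that firing regular. Inherited defects of several of these genes cause ataxia or epilepsy in humans, and the astrocytic channel Kcnj10 clears potassium that active neurons release.

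Sums of FPKM ran from 229937 to 247730 in the cerebellum libraries and from 239529 to 256460 in all cortex libraries except control 4. That library summed to 554380 because Gm10654, an uncharacterised gene, was listed at 322070. Gm10654 was also high in cortex controls 1, 2 and 3 (4221, 7289 and 2951 FPKM) and reached at most 1.90 in any library other than the cortex controls. It thus set apart the whole cortex control group, and the cause was not tested. The files give no counts, so the sequencing depth is unknown. Pairwise correlations of log2(FPKM + 1) within a group ran from 0.976 to 0.994, and no columns were identical. Atm FPKM was not lower in double mutants (7.59 to 9.14 in cerebellum) than in controls (6.75 to 7.13), but a gene-level value sums all exons, deleted or not, and does not check the deletion. Aptx FPKM ran from 2.09 to 2.86 in cerebellar double mutants and from 3.11 to 3.59 in controls. In each tissue the labels of mutant libraries carry a code that starts with G and those of controls a code that starts with C. The labels do not say what these codes mean. Genotype and whatever the code stands for cannot be told apart in any comparison with controls. Sex was uneven as well. Ddx3y, a Y-linked gene, ran from 19.9 to 28.9 FPKM in double mutants 2, 3 and 5 of both tissues. It stood at 2.30 and 8.24 FPKM in the cerebellum and cortex of double mutant 6, and at most 0.0532 in every control. Aptx-/- library 1 held 26.5 FPKM, and Aptx-/- library 2 and both Atm Nes-cre libraries held at most 0.0343.

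The pore-forming members share a sequence. Their symbols name them as potassium channels, so its presence describes the family and tests nothing. The ion path of a potassium channel is lined by a short selectivity filter, and its codons were searched in the mouse coding sequences of GENCODE M1 as Thr or Ser, then Ile, Leu, Val, Thr or Phe, then Gly, then Tyr, Phe or Leu, then Gly. All 60 pore-forming members held it, and the 8 tandem-pore members held it at 2 places. Neither the 12 auxiliary members nor Kcnrg held it, and 374 of 22594 genes (1.66%) did. The stretches below are from the members that the results turn on, 5′ to 3′ on the coding strand, with the 5 filter codons in capitals.
Kcnc2: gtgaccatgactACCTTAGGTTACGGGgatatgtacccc
Kcna2: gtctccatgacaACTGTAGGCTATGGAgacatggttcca
Kcng4: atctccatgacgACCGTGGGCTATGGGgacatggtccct
Kcnn1: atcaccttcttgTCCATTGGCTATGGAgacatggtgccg
Kcnk1, first filter: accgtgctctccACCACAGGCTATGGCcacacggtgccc
Kcnk1, second filter: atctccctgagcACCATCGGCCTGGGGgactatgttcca
Kcnk12, first filter: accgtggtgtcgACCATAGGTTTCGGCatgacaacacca
Kcnk12, second filter: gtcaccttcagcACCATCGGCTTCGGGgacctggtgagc
Kcnn1 opens its filter with a serine codon and the other stretches with a threonine codon.

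The members that gave the clearest results lie on many chromosomes of build mm9 (NCBIM37). Among them are Kcnc2 (chr10:111708179-111903360, plus strand), Kcnip4 (chr5:48780743-49915940, minus), Kcnab1 (chr3:64913306-65182145, plus), Kcnab2 (chr4:151764851-151851980, minus), Kcng4 (chr8:122147754-122159580, minus), Kcnn1 (chr8:73365948-73380907, minus), Kcnmb4 (chr10:115854917-115910934, minus) and Kcnj10 (chr1:174271341-174304216, plus). Kcna2 (chr3:106904485-106909797) and Kcna3 (chr3:106839080-106841047) are neighbours on the plus strand.

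In control cerebellum the highest members were Kcnd2, the pore of the A-type Kv4 current, with a mean of 73.0 ± 7.25 FPKM (SD, n = 4), and Kcnip4, a calcium-binding partner of Kv4 pores, with 49.5 ± 1.96. Next came Kcnk1, a tandem-pore leak channel (44.8 ± 1.98), Kcna1, the Kv1 pore whose human defects cause episodic ataxia (41.8 ± 2.25), and Kcnt1, a sodium-activated channel whose human defects cause epilepsy (38.1 ± 6.62). The 4 control libraries of Kcnd2 were all above those of Kcnip4, and those of Kcnip4 all above those of Kcnk1. From Kcnk1 down to Kcng4 in the tenth place (29.4 FPKM) each gene overlapped with the next. In control cortex the order was another one. Kcnab2, a cytoplasmic beta subunit of Kv1 channels, was highest (59.1 ± 4.32 FPKM) and did not overlap with Kcnma1, the large-conductance calcium-activated pore (43.0 ± 2.22). Kcnip4 (34.0 ± 1.15) and Kcna1 (31.6 ± 1.73) also stood among the highest 5, and all neighbours from Kcnip4 to the tenth place overlapped.

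The tissues were set side by side without a test, since their tables were made separately. The 4 control libraries of one tissue lay wholly above those of the other for 57 of the 73 members. The cerebellum lay above for 21 (28.8% of the 73) and the cortex for 36 (49.3% of the 73). Of all 13910 genes under the same filter 34.3% lay higher in cerebellum and 26.3% higher in cortex. On the cerebellar side were Kcng4, a silent subunit of the Kv6 group (29.4 against 1.47 FPKM), Kcnk10, a mechanically and lipid-gated leak channel (32.6 against 4.36), and Kcnd2 (73.0 against 25.9). On the cortical side Kcnj4, an inward rectifier, held 27.2 FPKM against 0.139, Kcnv1, a silent subunit, 17.6 against 0.103, Kcnh3, an ether-à-go-go-like pore, 17.4 against 0.416, and Kcnip2, another Kv4 partner, 25.3 against 1.78. By subfamily, summed FPKM in control cerebellum exceeded that in cortex for the Kv4 pores (85.7 against 37.4), the Kv3 pores (67.3 against 50.1) and the tandem-pore channels (121 against 60.9). The cortex held more of the Kcnq group (85.6 against 32.9), the Kcnh group (72.0 against 26.1) and the Kv1 beta subunits (101 against 61.3).

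**Figure D1:**
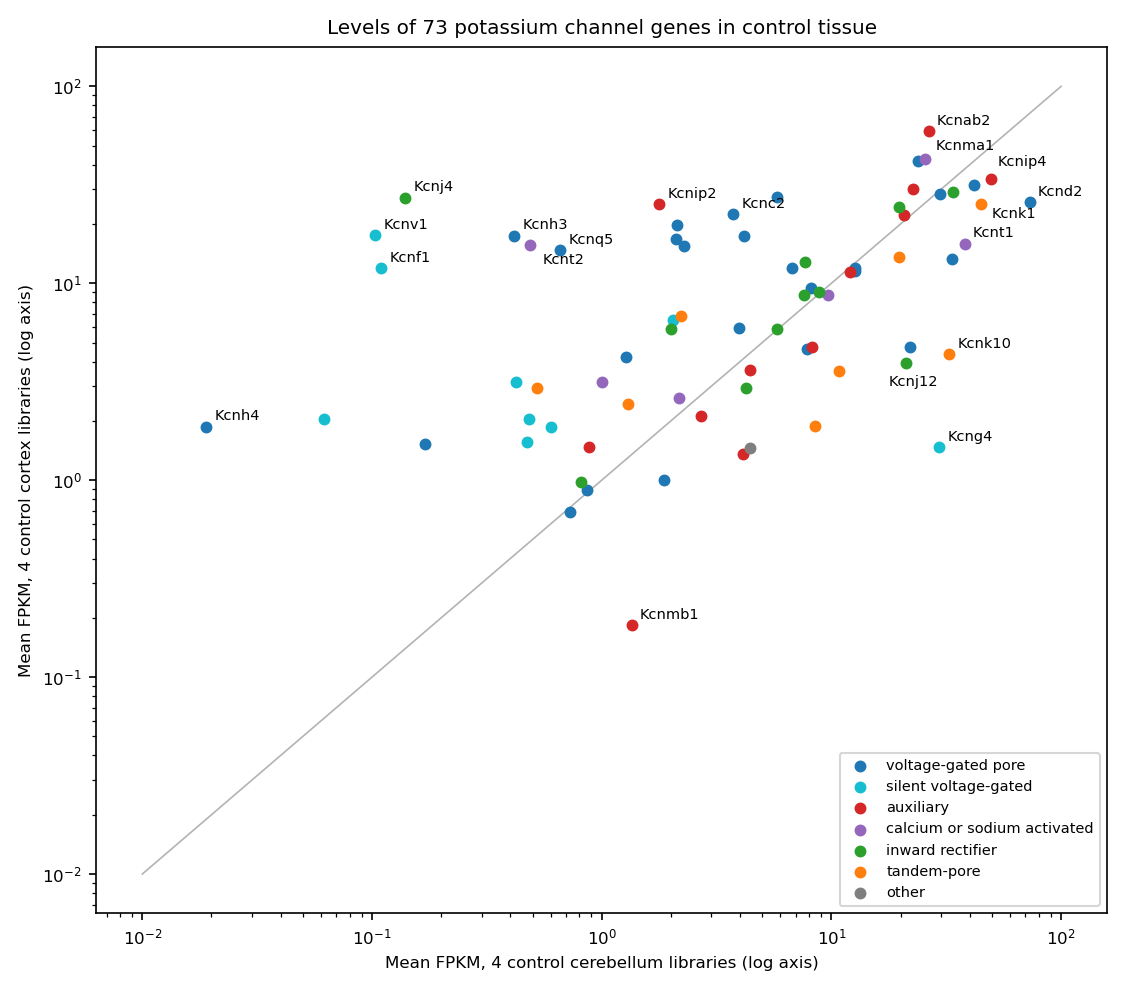
Mean FPKM of the 73 kept genes in the 4 control cerebellum libraries (x, log axis) and the 4 control cortex libraries (y, log axis), coloured by role, with a line of equal values. Kcng4 lies far below the line (29.4 in cerebellum, 1.47 in cortex), and Kcnj4, Kcnv1 and Kcnh3 far above it.

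The fits covered all 13277 and 12815 genes that passed (1 FPKM or more in 2 or more cerebellum or 4 or more cortex libraries), with limma on log2(FPKM + 1) and Benjamini-Hochberg adjustment, and adjusted p-values below 0.05 counted as calls. Of the 73 members 59 were tested in cerebellum and 70 in cortex, so that 14 and 3 stayed under the filter. Counted over all genotype groups of a tissue, no member passed a filter through 1 group only. With only the double mutants and controls of cerebellum 57 members passed. Every difference below is one of log2(FPKM + 1) and understates the change of low genes.

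In the cerebellum potassium channel genes were called lower in double mutants far more often than higher. The test called 23 of 59 members lower (39.0%), against 10.1% of all genes tested, and 5 higher (8.47%), against 22.3%. All 6 double mutants lay below all 4 controls for 16 members, where 6.32% of all genes did so, and above them for 3, where 15.5% did so. The median difference was -0.19 over the members and 0.06 over all genes tested. Lower calls came from nearly every role. They took 7 of 12 tested auxiliary subunits, 8 of 22 voltage-gated pores, 4 of 10 inward rectifiers, 2 of 5 calcium- or sodium-activated pores, 1 of 2 silent subunits and 1 of 7 tandem-pore channels. The summed FPKM of the members was 642 to 764 in double mutants, 772 to 879 in controls, 742 to 766 in Aptx-/- and 783 to 803 in Atm Nes-cre animals, so double mutants and controls did not overlap. In whole tissue, fewer cells of a type and less RNA per cell cannot be told apart.

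**Figure D2:**
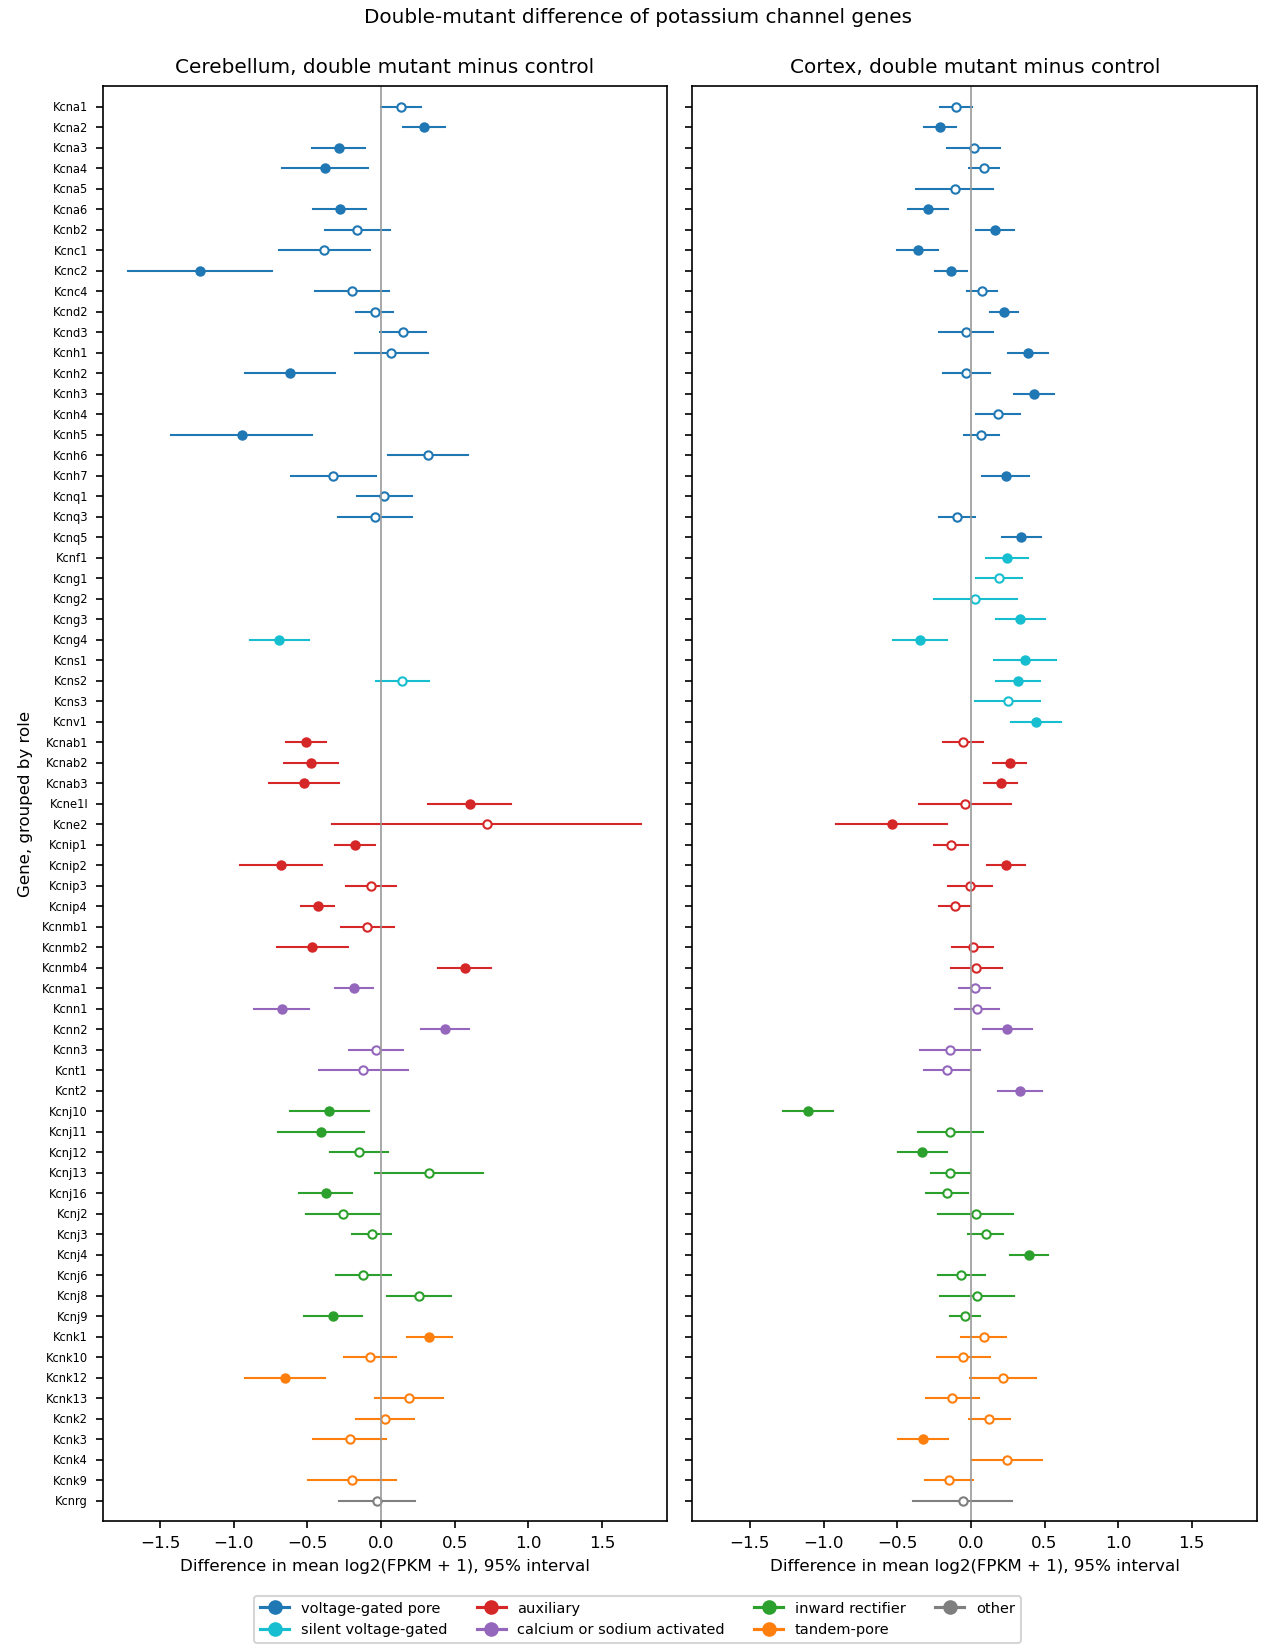
Difference in mean log2(FPKM + 1) between double mutants and controls for tested potassium channel genes in cerebellum (left) and cortex (right), with 95% intervals from limma, coloured by role, filled where called at an adjusted p below 0.05. Of the genes drawn, 21 filled points lie left of 0 and 5 right of it in cerebellum, and 9 lie left and 17 right in cortex.

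Among the voltage-gated pores Kcnq3, a pore of the slow M-current that restrains repetitive firing, differed by -0.04 (95% interval -0.29 to 0.21, limma adjusted p = 0.818), with controls at a mean of 5.81 and double mutants at 5.63 FPKM.

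All 4 Kv3 pores, which repolarise fast-firing neurons, had negative differences, and the test called 1 of them. Kcnc2 stood at 4.62, 2.96, 4.67 and 2.70 FPKM in controls and at 0.740, 0.836, 0.878, 2.25, 0.638 and 0.912 in double mutants. Double mutant 4 came close to the lowest control, and the other 5 stayed below 1 FPKM. The difference was -1.23 (SE 0.23, limma adjusted p = 0.00123). Kcnc1 differed by -0.38 (limma adjusted p = 0.0544), with controls from 29.5 to 42.3 and double mutants from 17.3 to 33.5 FPKM, so the groups overlapped, and it was called lower under both other scalings (-0.45 in each). Kcnh5, an ether-à-go-go pore, fell with Kcnc2. It held 2.58, 1.68, 2.95 and 1.87 FPKM in controls and 0.381, 0.441, 0.788, 1.96, 0.415 and 0.492 in double mutants (difference -0.95, SE 0.22, limma adjusted p = 0.00569), and double mutant 4 again lay among the controls. Kcnh2, the related ERG pore, fell from 7.83 ± 2.06 to 4.67 ± 0.730 FPKM (difference -0.62, SE 0.14, limma adjusted p = 0.00517).

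The libraries high in Kcnc2 and Kcnh5 were also high in Slc17a6 and in a list of brain stem markers. Whole-tissue values do not say whether cells inside or outside the cerebellum held these RNAs. Slc17a6, the glutamate transporter of thalamic, midbrain and hindbrain neurons, stood at 20.7, 12.9, 21.5 and 12.5 FPKM in controls and at 4.33, 4.18, 6.26, 12.1, 4.34 and 6.53 in double mutants, with the high value again in double mutant 4. The summed FPKM of 6 brain stem markers (Hoxb6, Tph2 and Chat among them) was 1.18 to 4.65 in controls and 0.0867 to 0.442 in double mutants. Hoxb6 was listed at 0 in every control, and Tph2, the enzyme of serotonin neurons, reached 3.42, 1.58, 2.73 and 0.787 FPKM in controls. Their part in the lower channel values was not tested. Without controls 1 and 3, in which Tph2 was highest, a setting chosen after seeing the data, 12 of 58 members were called lower (20.7%), where 4.26% of all genes were, and 3 higher (5.17%), where 11.4% were. Kcnc2 was among them (limma adjusted p = 0.0409, the highest of all settings, with a lowest of 0.000255), and Kcnh5 was not (limma adjusted p = 0.104, the highest of all settings, with a lowest of 0.000493).

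The Kv1 and Kv4 pores differed little or in both directions. Kcnd2, the highest member of this tissue, differed by -0.04 (95% interval -0.17 to 0.08, limma adjusted p = 0.611), and its relative Kcnd3, mutated in a human spinocerebellar ataxia, by 0.15 (limma adjusted p = 0.126). Kcna1 differed by 0.14 (limma adjusted p = 0.123). Kcna2, its common partner in axonal Kv1 channels, rose. Its FPKM was 29.5, 29.6, 28.5 and 31.6 in controls and 38.4, 37.2, 39.2, 30.3, 37.8 and 38.0 in double mutants. Double mutant 4 lay among the controls and the other 5 above them (difference 0.29, SE 0.07, limma adjusted p = 0.00457). The call was lost with Ddx3y as a covariate and without controls 1 and 3 (highest limma adjusted p = 0.0727, lowest 0.000137). Kcna3, a Kv1 pore, fell from 3.97 ± 0.323 to 3.07 ± 0.280 FPKM (difference -0.29, SE 0.09, limma adjusted p = 0.019), Kcna6 by 0.28 and Kcna4 by 0.38. The call of Kcna4 was lost in 16 of 23 other settings.

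The auxiliary subunits were called lower 7 times and higher 2 times. Kcnip4 stood at 49.1, 48.2, 48.3 and 52.3 FPKM in controls and at 35.5, 38.8, 34.2, 39.6, 36.2 and 34.5 in double mutants, with a wide gap between the groups. It fell by 0.43 (SE 0.05, limma adjusted p = 5.41e-05). All 3 Kv1 beta subunits were lower. Kcnab1 held 21.6, 23.1, 20.8 and 25.5 FPKM in controls and 15.6, 16.2, 13.9, 17, 15.7 and 15.7 in double mutants (difference -0.51, SE 0.06, limma adjusted p = 6.47e-05). Kcnab2 held 27.1, 27, 29.7 and 22.2 FPKM in controls and 17.8, 18.8, 20.7, 17.5, 17.9 and 19.4 in double mutants (difference -0.48, SE 0.09, limma adjusted p = 0.00101). In neither gene did the groups overlap, and the same held for Kcnab3 (12.1 ± 2.58 against 7.96 ± 0.546 FPKM, difference -0.53, limma adjusted p = 0.00294). Kcnip2, low in this tissue, held 2.30, 1.70, 1.79 and 1.31 FPKM in controls and 0.488, 0.734, 0.628, 1.11, 0.6 and 0.819 in double mutants (difference -0.68, SE 0.13, limma adjusted p = 0.00149). Kcnip3, a further member of the Kv4 partner group, differed by -0.07 (limma adjusted p = 0.532).

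The beta subunits of the large-conductance calcium-activated channel moved in opposite directions. Kcnmb4, the neuronal beta subunit that slows the channel, rose from 3.99, 4.58, 4.66 and 4.45 FPKM in controls to 5.57, 8.11, 7.54, 6.87, 7.21 and 7.07 in double mutants, and the groups did not overlap (difference 0.57, SE 0.09, limma adjusted p = 0.000282). Kcnmb2, the subunit that inactivates the channel, fell from 0.876 ± 0.262 to 0.354 ± 0.146 FPKM (difference -0.47, SE 0.11, limma adjusted p = 0.00617). Both means of Kcnmb2 lay below 1 FPKM, close to the filter. It was tested in only 19 of the other settings. It stayed under the filter with only the groups compared, without controls 1 and 3, without control 3 and without Atm Nes-cre library 1. Kcnmb2 thus passed through control and Atm Nes-cre libraries, so its lower call is not independent of the filter. Its call was lost with Ddx3y as a covariate (limma adjusted p = 0.0503). The pore itself, Kcnma1, fell by a smaller amount, from 25.5 ± 0.826 to 22.4 ± 1.56 FPKM (difference -0.19, SE 0.06, limma adjusted p = 0.0289). Kcne1l, a single-span auxiliary subunit, rose from 4.13 ± 0.817 to 6.80 ± 1.25 FPKM (difference 0.60, SE 0.13, limma adjusted p = 0.00356). Kcne2, abundant in choroid plexus, varied widely, and its difference of 0.72 had an SE of 0.49 (limma adjusted p = 0.283). Choroid plexus markers summed to 14.4 to 762 FPKM in controls and 112 to 1162 in double mutants.

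The small-conductance calcium-activated pores split as well. Kcnn1 held 1.92, 1.98, 2.36 and 2.38 FPKM in controls and 1.16, 0.845, 1.23, 0.952, 0.897 and 0.810 in double mutants, without overlap (difference -0.67, SE 0.09, limma adjusted p = 8.56e-05). Kcnn2, the form that Purkinje cells use to space their spikes, rose from 8.77, 11.2, 10.6 and 8.21 FPKM in controls to 13.3, 13.4, 13.3, 14.4, 13.3 and 12.2 in double mutants (difference 0.43, SE 0.08, limma adjusted p = 0.000925). Kcnt1 differed by -0.12 (95% interval -0.42 to 0.18, limma adjusted p = 0.546). The silent subunit Kcng4, high in this tissue, fell from 29.3, 33.4, 28.5 and 26.5 FPKM in controls to 18.4, 22.2, 17.4, 14.8, 16.6 and 18.2 in double mutants, again without overlap (difference -0.69, SE 0.09, limma adjusted p = 0.000147).

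Among the leak channels Kcnk12, a tandem-pore subunit that is silent or weakly active on its own, held 7.51, 10.1, 8.19 and 8.23 FPKM in controls and 4.99, 6.87, 6.03, 3.85, 4.10 and 4.82 in double mutants (difference -0.65, SE 0.13, limma adjusted p = 0.00171). Kcnk1 rose from 44.1, 46.0, 42.5 and 46.9 FPKM to 63.5, 52.8, 59.1, 47.9, 59.4 and 58.0 (difference 0.33, SE 0.07, limma adjusted p = 0.00329). The groups did not overlap for either gene, although double mutant 4 came within about 1 FPKM of the highest control for Kcnk1. Of the G-protein-gated inward rectifiers Kcnj9 fell from 33.8 ± 4.50 to 26.8 ± 3.10 FPKM (difference -0.32, SE 0.09, limma adjusted p = 0.0153), while Kcnj3 differed by -0.06 and Kcnj6 by -0.12 without a call. Kcnj16, the partner of Kcnj10 in glia, fell by 0.38 (limma adjusted p = 0.00432), and Kcnj11, the pore of the ATP-sensitive channel, by 0.41 (limma adjusted p = 0.033, lost in 10 of 23 other settings). Kcnj10 fell by 0.35 (SE 0.13, limma adjusted p = 0.0463) with overlapping groups, and that call was lost in 12 of 23 other settings. Astrocyte markers summed to 499 to 549 FPKM in double mutants and 399 to 432 in controls, and 3 of 7 were higher and none lower.

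Of the 28 cerebellar calls 14 were made in all 23 other settings. Among them were Kcnc2, Kcng4, Kcnn1, Kcnk12, Kcnip2, Kcnip4, Kcnab1, Kcnab2 and Kcnab3, all lower, and Kcnmb4, Kcnn2 and Kcne1l, all higher. Kcnk1, Kcnh2 and Kcnj16 lost their calls without controls 1 and 3 and in no other setting. Of the Purkinje markers 2 of 10 were lower and 3 higher. Itpr1, the Purkinje calcium release channel, was lower by 2.78 and Car8, its binding protein, by 0.36, while Pcp2, Calb1 and Gad1 were higher. Purkinje markers summed to 626 to 745 FPKM in double mutants and 814 to 1062 in controls. Without Itpr1, which ran from 33.6 to 48.1 and from 232 to 348 FPKM, the sums were 586 to 697 and 582 to 714 and overlapped. Of the granule neuron markers none was lower and 4 of 8 were higher. Their part in the channel values was not tested.

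**Figure D3:**
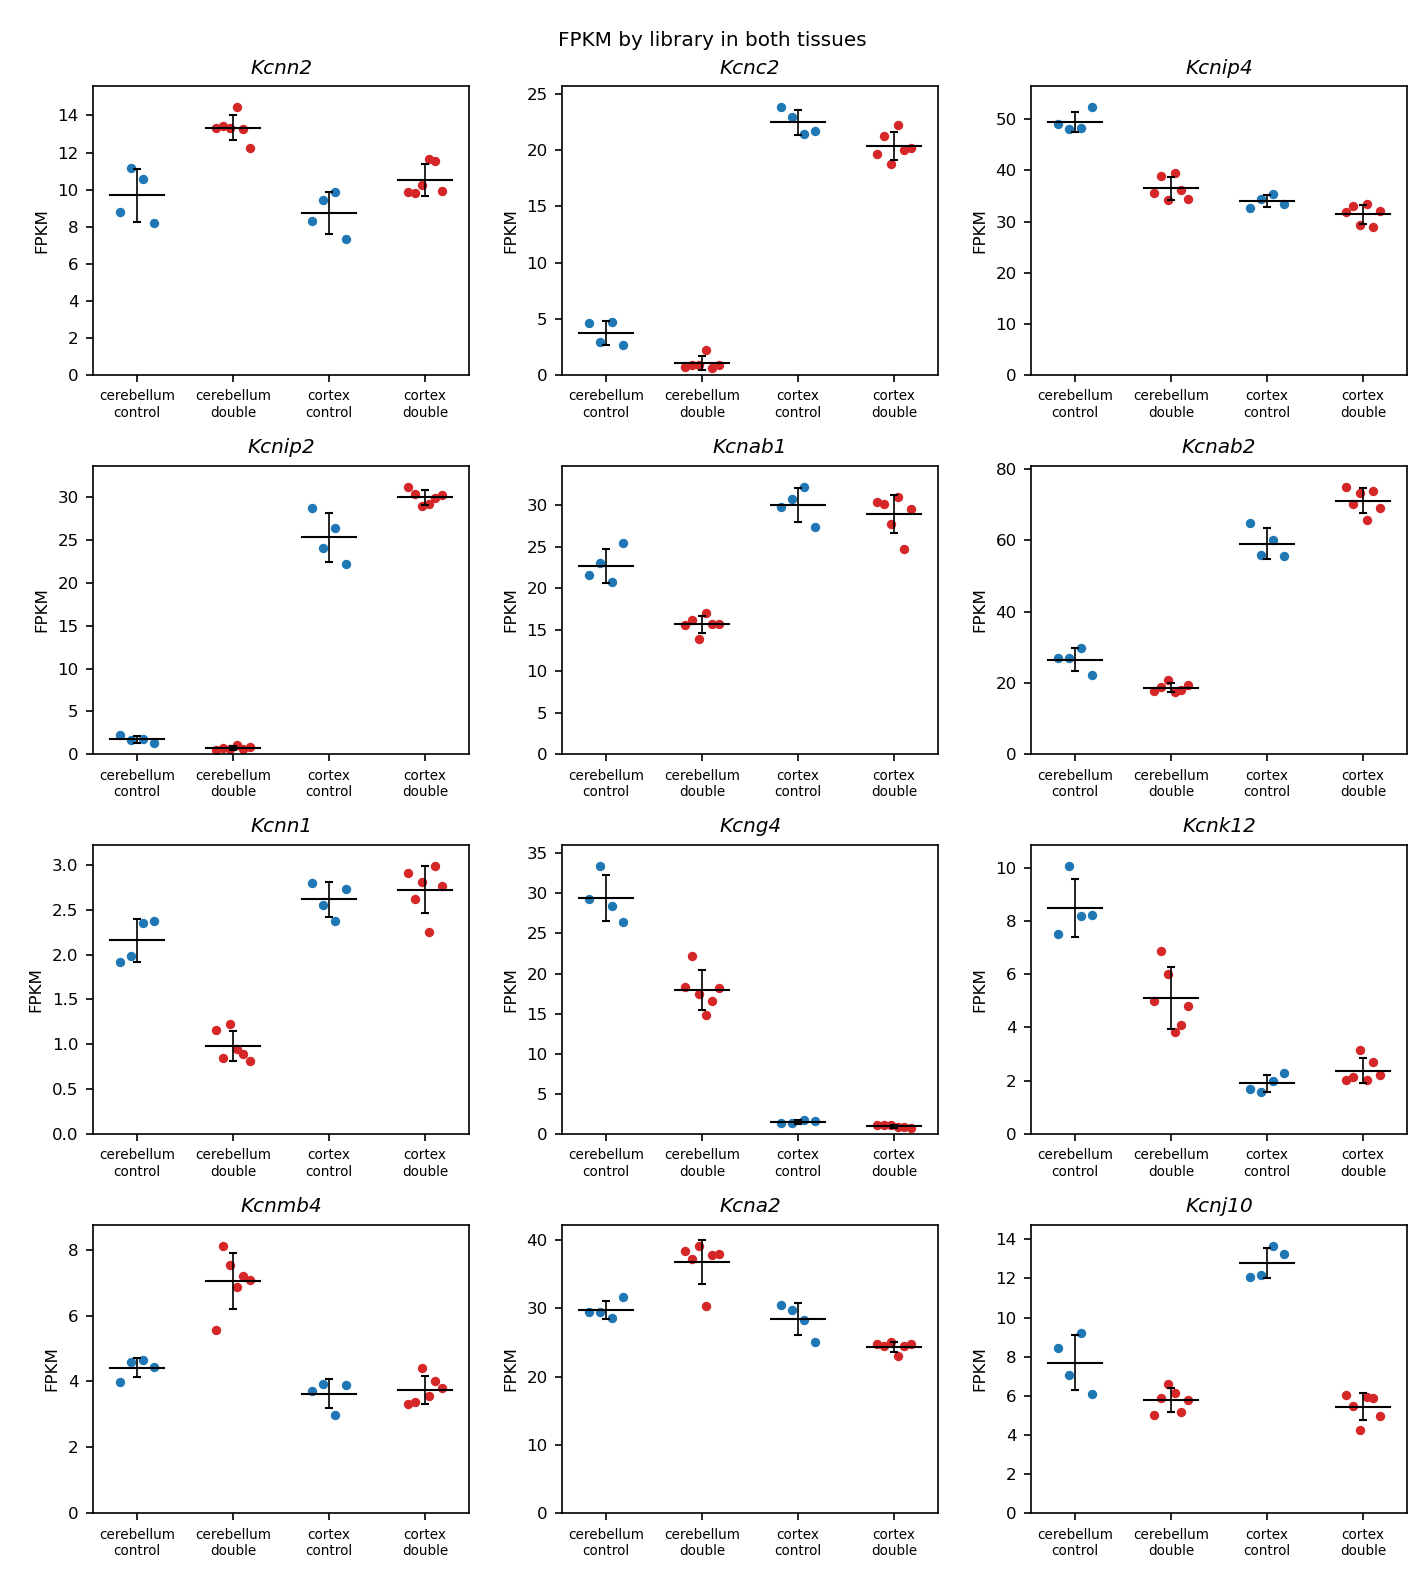
FPKM of 12 potassium channel genes in every control (blue) and double-mutant (red) library of cerebellum and cortex, each axis starting at 0, with the group mean (line) and SD (bar). Kcnip4, Kcnab1, Kcnn1, Kcnn2 and Kcng4 show separate control and double-mutant points in cerebellum, and Kcnj10 shows them in cortex, where controls lie between 12.05 and 13.7 and double mutants between 4.27 and 6.02.

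Channel partners whose symbols do not start with Kcn moved in both directions. Of 33 tested in cerebellum 6 were lower (18.2%), where 10.1% of all genes were, and 3 higher (9.09%), where 22.3% were, with a median difference of -0.06. Dpp10, a Kv4 partner, was lower by 0.43, Adam23, of the Kv1 complex, by 0.50, and Amigo1, the Kv2 partner, by 0.42. Hcn3, a pore of the hyperpolarisation-activated cation current, was lower by 0.50.

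The double mutant was then compared with the single mutants, all of which carry the same G code in their labels. The test called 3 of 59 members lower (5.08%), against 0.851% of all genes tested, and 2 higher (3.39%), against 1.13%, with a median difference of -0.07. Kcnip4 held 47.5 and 44.8 FPKM in Aptx-/- and 52.5 and 49.0 in Atm Nes-cre animals, all above the 34.2 to 39.6 of double mutants (difference -0.40, SE 0.05, limma adjusted p = 0.00146). Kcnab1 held 21.6 and 20.8 in Aptx-/- and 20.9 and 19.6 in Atm Nes-cre animals, all above the double mutants' 13.9 to 17 (difference -0.38, SE 0.06, limma adjusted p = 0.00582). For both genes the single mutants lay near or within the control range, which was 48.2 to 52.3 and 20.8 to 25.5 FPKM. Purkinje markers without Itpr1 summed to 844 to 888 FPKM in Aptx-/- and 808 to 866 in Atm Nes-cre animals, all above the 586 to 697 of double mutants. Granule neuron markers overlapped, with 909 to 952, 902 to 1024 and 823 to 974 FPKM. The part of these markers in the channel differences was not tested.

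Kcnj3, a subunit of G-protein-gated channels, showed another pattern. It held 20.8 and 24.2 FPKM in Aptx-/- and 26.2 and 22.5 in Atm Nes-cre animals, against 17.4 to 20.7 in double mutants and 18.8 to 20.2 in controls (double minus single -0.30, SE 0.06, limma adjusted p = 0.0229). The single mutants were thus the highest, but the lowest of them, an Aptx-/- library, only just. Kcna2 rose in double mutants also against the single mutants, which held 30.4, 27.2, 27.8 and 28.6 FPKM (difference 0.35, SE 0.07, limma adjusted p = 0.0148). Kcna3 was lowest in single mutants, with 2.17 and 2.43 FPKM in Aptx-/- and 1.44 and 2.19 in Atm Nes-cre animals against 2.62 to 3.44 in double mutants (difference 0.42, SE 0.09, limma adjusted p = 0.0216). These calls rest on 4 single-mutant libraries. None of the 5 held in every setting. Without Aptx-/- library 2, and without Atm Nes-cre library 1, 2 members were called (3.39% and 3.51%), where 0.731% and 0.626% of all genes were. With the replicate number as a block limma called 0 (16 at an unadjusted p under 0.05), where 7 of all genes were called.

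Against controls, Aptx-/- cerebellum showed 11 of 59 members lower (18.6%), where 5.16% of all genes were, and 1 higher (1.69%), where 10.4% were. Kcnab3 gave the smallest p, with 6.67 and 5.09 FPKM against 9.35 to 15.5 in controls (difference -0.91, limma adjusted p = 0.00183). Kcnn1 held 0.850 and 1.04 FPKM (difference -0.70, limma adjusted p = 0.00201) and Kcng4 held 17.9 and 18.5 FPKM (difference -0.66, limma adjusted p = 0.0048). Kcnmb4, the one higher member, held 7.83 and 6.5 FPKM (difference 0.59, limma adjusted p = 0.00485). In Atm Nes-cre cerebellum 7 members were lower (11.9%), where 3.25% of all genes were, and 2 higher (3.39%), where 6.78% were. Kcna3 (difference -0.83, limma adjusted p = 0.00082), Kcnab2 with 14.8 and 19.4 FPKM (difference -0.61, limma adjusted p = 0.00598), Kcnip2 with 0.372 and 0.626 FPKM (difference -0.88, limma adjusted p = 0.00748) and Kcng4 with 21.9 and 17.8 FPKM (difference -0.55, limma adjusted p = 0.0164) led the lower members, and Kcnk1 (0.35) and Kcnj3 (0.29) were called higher. Neither was called higher under quantile scaling, median rescaling or the replicate block, and over 23 other settings the call of Kcnk1 was lost in 9 and that of Kcnj3 in 13. These comparisons share their 4 controls with that of the double mutant. Without controls 1 and 3, 6 of 58 members were called in Aptx-/- (10.3%) and 1 in Atm Nes-cre cerebellum (1.72%), where 4.67% and 2.66% of all genes were, and without Aptx-/- library 1 or 2 the former count was 5 or 6. The latter count of 9 became 2 or 4 without Atm Nes-cre library 1 or 2, 5 or 4 without control 1 or 3, and 4 with only the groups compared in the fit.

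Markers of other cells moved with both single mutants as well. Brain stem markers summed to 0.0485 to 0.538 FPKM in Aptx-/- and 0.426 to 0.960 in Atm Nes-cre animals, below the 1.18 to 4.65 of controls, and Slc17a6 ran from 3.40 to 8.38 and from 3.06 to 10.2 FPKM, below the 12.5 to 21.5 of controls. Purkinje markers summed to 1151 to 1182 FPKM in Aptx-/- and 1092 to 1177 in Atm Nes-cre animals, with 7 and 3 of 10 called higher and none lower. Granule neuron markers summed to 909 to 952 and 902 to 1024 FPKM against 663 to 830 in controls, with 4 of 8 called higher in each single mutant and none lower. Their part in the channel values was not tested.

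**Figure D4:**
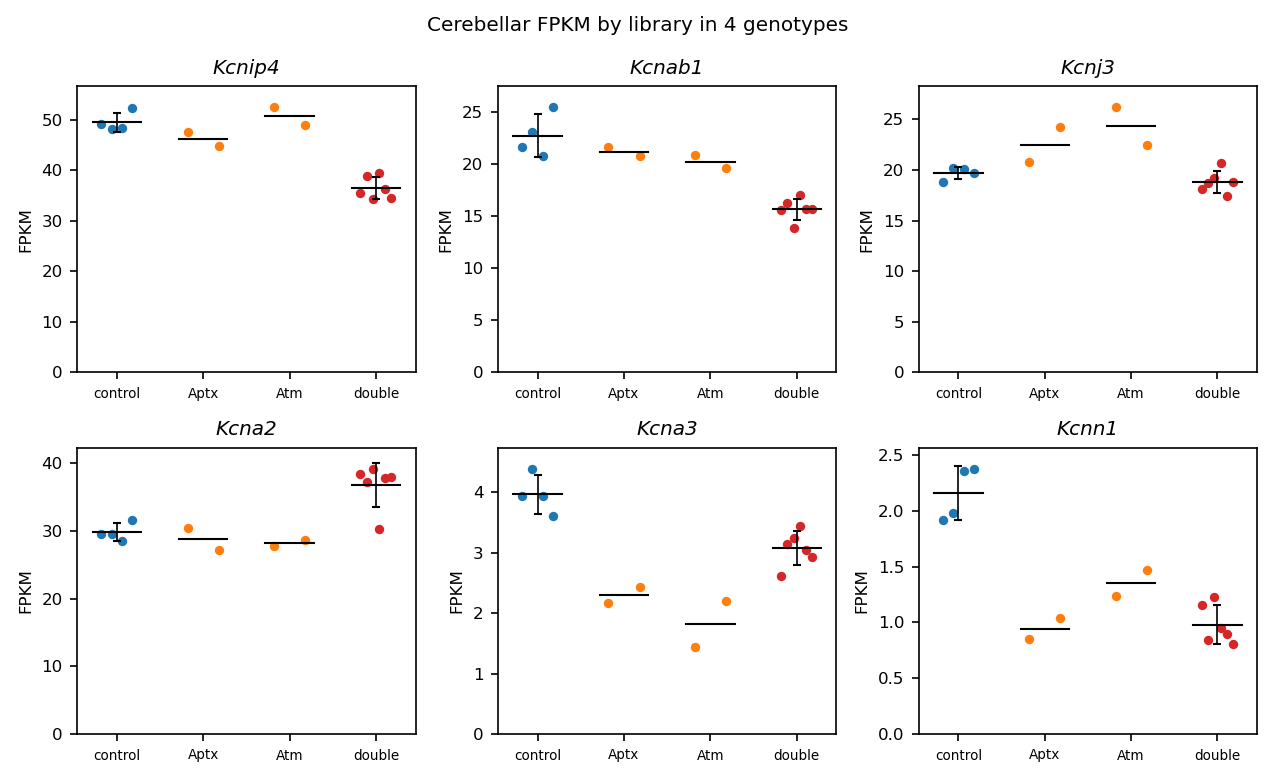
Cerebellar FPKM of 6 potassium channel genes in every library of 4 genotypes, with the mean of each group (line) and the SD (bar) where a group has over 2 libraries. The 6 double mutants of Kcnip4 (34.2 to 39.6) and Kcnab1 (13.9 to 17) lie below every other library, and Kcnn1 lies below the controls in all 3 mutant groups.

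In cortex the shares of potassium channel genes called were close to those over all genes. The test called 10 of 70 members lower (14.3%), where 14.5% of all genes were, and 18 higher (25.7%), where 24.3% were. All double mutants lay below all controls for 7 members, where 9.39% of all genes did, and above for 14, where 17.7% did. The median difference was 0.03 for the members and for all genes. Voltage-gated pores split into 5 lower and 7 higher of 24, and the silent subunits into 1 lower and 5 higher of 9.

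Kcnj10 showed the largest cortical difference of the family. It held 12.05, 12.2, 13.7 and 13.2 FPKM in controls and 6.02, 5.48, 4.27, 5.96, 5.89 and 4.97 in double mutants, and the groups lay far apart. It fell by 1.11 on the log2 scale (SE 0.08, limma adjusted p = 1.45e-06). Both astrocytes and oligodendrocytes use this channel. Oligodendrocyte markers were lower for 5 of 6 genes, with a summed FPKM of 451 to 733 in double mutants and 856 to 976 in controls, and astrocyte markers were higher for 4 of 7 and lower for none, with sums of 440 to 478 and 397 to 457. Their part in the Kcnj10 value was not tested. Kcnc1 held 13.0, 13.1, 13.4 and 13.9 FPKM in controls and 9.77, 11.8, 9.30, 9.43, 9.66 and 11.3 in double mutants (difference -0.36, SE 0.06, limma adjusted p = 0.000978). Kcna2, higher in the mutant cerebellum, fell by 0.21 in cortex (limma adjusted p = 0.00645), from 25.1 to 30.5 FPKM in controls to 23.0 to 25.0.

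The higher calls of cortex comprised 7 voltage-gated pores, 5 silent subunits and members of other roles. Kcnv1, which enters Kv2 channels but forms none alone, held 18.2, 19.0, 17.1 and 15.9 against 21.5, 21.0, 27.8, 25.2, 26.9 and 23.5 FPKM (difference 0.44, SE 0.08, limma adjusted p = 0.000934). Kcns1, Kcns2, Kcng3 and Kcnf1, silent subunits too, were higher by 0.25 to 0.37, whereas Kcng4 fell by 0.35. Kcnh3 (difference 0.43, limma adjusted p = 0.000271), Kcnj4 (0.40, limma adjusted p = 0.0003), Kcnh1 (0.39, limma adjusted p = 0.000461) and Kcnq5 (0.34, limma adjusted p = 0.000814) rose without overlap between groups. Kcnab2 held 64.7, 55.8, 60.2 and 55.6 FPKM in controls and 74.9, 70.2, 73.2, 65.5, 73.8 and 69.0 in double mutants (difference 0.27, limma adjusted p = 0.00167). Of 6 genes listed as markers of cortical excitatory neurons 4 were higher, Emx1, Neurod6 and Tbr1 among them, and 2 (Rorb and Slc17a6) lower. Slc17a6 is the transporter named above for thalamic, midbrain and hindbrain neurons, so its value does not describe cortical neurons alone. It held 6.97 to 17.8 FPKM in cortical double mutants and at least 21.4 in cortical controls. The part of these markers in the channel values was not tested. Of 32 channel partners 5 were lower (15.6%) and 11 higher (34.4%), where 14.5% and 24.3% of all genes were, with Hcn2 higher by 0.31 and Atp1b2, the glial sodium pump beta subunit, lower by 0.60. With Ddx3y as a covariate 3 members were called lower (4.29%), where 4.53% of all genes were, and 10 higher (14.3%), where 13.7% were. Of the 28 calls 13 held in all 17 other settings, among them Kcnj10, Kcnc1, Kcna2, Kcnv1, Kcnh3, Kcnj4 and Kcnab2.

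The difference between tissues was tested as such, as the change of double mutants in cerebellum less their change in cortex, in 55 members that passed both filters. It was negative by call for 19 (34.5%), where 11.7% of all genes were, and positive for 5 (9.09%), where 15.4% were. Kcnab2, lower in cerebellum and higher in cortex, differed by -0.74 (limma adjusted p = 2.51e-05), and Kcnip2 and Kcnab3, with opposite calls in the tissues as well, by -0.92 (limma adjusted p = 7.69e-05) and -0.73 (limma adjusted p = 0.000311). Kcnn1 (-0.72, limma adjusted p = 0.000119) was called lower in cerebellum and not in cortex. Kcnip4 and Kcnab1, not called in cortex (-0.11 and -0.05 there, limma adjusted p = 0.0833 and 0.524), differed by -0.32 (limma adjusted p = 0.00271) and -0.45 (limma adjusted p = 0.0017).

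On the positive side Kcna2 differed by 0.50 (limma adjusted p = 0.00044), higher in cerebellum and lower in cortex. Kcnj10 differed by 0.76 (limma adjusted p = 0.000534), with the larger decrease in cortex, and Kcnmb4 by 0.53 (limma adjusted p = 0.00299). Kcnmb4 held 2.98 to 3.93 FPKM in cortical controls and 3.33 to 4.42 in cortical double mutants, which overlapped. By role, 10 of 20 tested voltage-gated pores and 5 of 10 auxiliary subunits had a called negative tissue difference. Of 10 inward rectifiers limma called 0 negative and 1 positive, and 4 had an unadjusted p under 0.05.

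**Figure D5:**
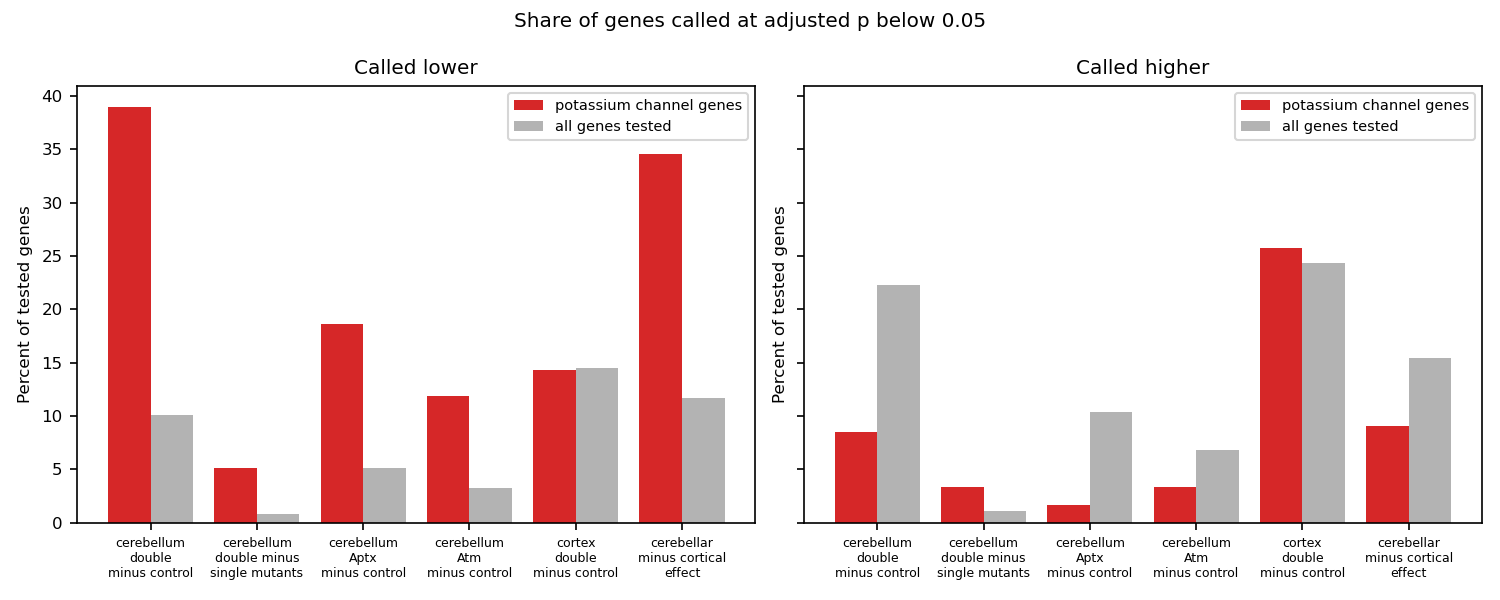
Percent of tested potassium channel genes (red) and of all genes tested (grey) called lower (left) and higher (right) in each comparison, at a limma adjusted p below 0.05. Red bars exceed grey ones on the left in all cerebellar comparisons and in the tissue difference, and in cortex they are nearly equal (14.3% and 14.5% lower).

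Promoter sequence was available for 54 members in the RefSeq table of GRCm38.p6, from 250 bases before to 50 after a start. The GC box (GGGCGG, either strand) occurred in 36 of them (66.7%) and in 38.2% of 27025 genes. TATAAA occurred in 4 members (7.41%) and in 15.7% of all genes, CACGTG in 3 (5.56%) and 8.09%, and TGACGTCA in none and 2.03%. The median number of CG pairs was 11.5 in members and 7 in all genes. The sets are unlike, since the members had passed the FPKM rule and the 27025 genes were not filtered by FPKM. Shares among genes under the same FPKM rule were not computed. The promoters of a member that was lower and of one that was higher in cerebellum are shown, with GC boxes of either strand in capitals.
Kcnip2, GRCm38.p6 chr19:45816014-45816313, minus strand: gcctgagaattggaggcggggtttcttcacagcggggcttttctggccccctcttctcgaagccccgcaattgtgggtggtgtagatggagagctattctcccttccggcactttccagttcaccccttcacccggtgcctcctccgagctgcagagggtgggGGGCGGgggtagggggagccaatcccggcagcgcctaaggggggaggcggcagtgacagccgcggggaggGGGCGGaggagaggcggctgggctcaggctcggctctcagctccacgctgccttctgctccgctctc
Kcnmb4, GRCm38.p6 chr10:116473474-116473773, minus strand: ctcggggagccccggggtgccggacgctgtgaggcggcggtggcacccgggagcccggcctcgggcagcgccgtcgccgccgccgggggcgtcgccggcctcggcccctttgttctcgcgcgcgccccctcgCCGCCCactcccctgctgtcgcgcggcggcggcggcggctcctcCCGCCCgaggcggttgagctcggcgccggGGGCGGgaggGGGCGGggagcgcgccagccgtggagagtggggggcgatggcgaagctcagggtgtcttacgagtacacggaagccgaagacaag
Both windows hold GC boxes although the genes moved in opposite directions, and a match in such a window is a description of its letters only.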

How the data were processed

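Total RNA of whole cerebellum (14 libraries) and cortex (10 libraries) was prepared by the authors with a stranded total RNA kit. According to the submitters' processing notes reads were mapped to mm9 with BWA 0.5.10 and counted with HTSeq, and how FPKM was computed from there is not given in the sources used here. The deposited values are FPKM per gene and library, made by the authors (sequenced fragments per kilobase of gene model, scaled to the library), in 1 table per tissue. The controls' and double mutant 6's columns carry more digits than the rest, and how this arose is not known. The files hold no counts, so sequencing depth stayed unknown and counting intervals were not computed.

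Groups were taken from the titles. The labels do not say which libraries came from separate animals, so p-values measure the spread between these samples. Same-numbered cerebellum and cortex libraries of double mutants share a sample code, and those of controls do not. Whether a code stands for an animal is not stated. Values were transformed as log2(FPKM + 1), and genes with 1 FPKM or more in 2 or more cerebellum or 4 or more cortex libraries entered limma 3.58.1 in R 4.3.3 (empirical Bayes with trend, both directions tested), with Benjamini-Hochberg adjustment over all genes tested. All 4 cerebellar genotypes shared 1 fit. The tissue difference was an interaction contrast over the 20 double-mutant and control libraries, treated as independent. The fits were tested on simulated data. Same-numbered cerebellum and cortex libraries deviated together (correlations 0.234 to 0.499 in double mutants and 0.130 to 0.308 in controls) and were treated as pairs in an alternative of the tissue difference. In each of these pairs the same number gave the best match. Within a tissue correlations of same-numbered libraries ran from -0.192 to 0.337. There the same number gave the best match only for double mutant 2 among controls and double mutant 1 among Atm Nes-cre libraries, both in cerebellum.

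Named genes were the highest members of each tissue and subfamily, the called members with the largest differences and no overlap, those with the smallest p of the other comparisons, members known for ataxia, epilepsy or potassium buffering, and those nearest the threshold. Kcnh5, Kcnh2, Kcna4, Kcna6, Kcnj16, Kcnj11, Kcnip3, Kcnj6, Kcnk10, Kcne2 and the silent subunits of cortex were named after their values were seen. The members, marker lists and partner lists were chosen with earlier results of these data known. Filter codons were searched in GENCODE M1 coding sequences, and promoters came from RefSeq. Alternatives were a pseudocount of 0.1, no filter, quantile and median scaling, no trend, a replicate block, Ddx3y as a covariate, only the groups compared and each library left out. Leaving out cerebellar controls 1 and 3 was added after seeing the data. Some genes and sequences are not reported here.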

Additional observations from a re-analysis of the deposited data

Results flagged for a closer look

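In 8 of 152 groups of 4 or 6 values (5.3%) 1 library stood apart from the rest of its group, and chance gives about 1 in 20. In cerebellum control 2 was high for Kcnd2 (83.8 FPKM), double mutant 1 was low for Kcnma1 (19.3), and double mutant 4 was low for Kcnt1 (22.4), Kcna2 (30.3) and the sum of the members (642) and high for Kcnc2 (2.25). In cortex double mutant 4 was low for Kcna2 (23.0) and double mutant 1 for Kcna3 (4.55).

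The double-mutant effect differed between cerebellum and cortex for 24 members by the limma interaction test, of which 21 are listed. The cerebellar minus cortical effect was negative for Kcnc2 (-1.09), Kcnh5 (-1.02), Kcnip2 (-0.92), Kcnk12 (-0.87), Kcnab2 (-0.74), Kcnab3 (-0.73), Kcnn1 (-0.72), Kcnh2 (-0.59), Kcnh7 (-0.56), Kcna4 (-0.47), Kcnab1 (-0.45), Kcng4 (-0.34), Kcnip4 (-0.32), Kcna3 (-0.31), Kcnd2 (-0.27) and Kcnma1 (-0.21). It was positive for Kcnj10 (0.76), Kcne1l (0.64), Kcnmb4 (0.53), Kcna2 (0.50) and Kcna1 (0.24). Of the 24 calls 15 held in all 28 other settings. The calls of Kcng4, Kcna1, Kcna3 and Kcnma1 were lost in 19, 18, 17 and 15 of those settings.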

How the results depend on the processing

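No member called in any of the 6 comparisons changed sign under any alternative that was run. In cerebellum, double mutant minus control, 28 calls became 15 without controls 1 and 3 and 22 to 31 with each library left out. Of all genes 32.4% were called in the main fit, 15.6% without controls 1 and 3 and 24.3% to 34.1% with each library left out. With only the groups compared 20 of 57 members were lower (35.1%), where 9.69% of all genes were, and 5 higher (8.77%), where 21.3% were. With Ddx3y as a covariate 18 members were lower (30.5%), where 9.02% of all genes were, and 4 higher (6.78%), where 12.9% were. Of all genes called there 68.9% were higher in the main fit, 52.1% with quantile scaling and 48.4% with median rescaling. Quantile scaling gave 25 lower (42.4%) and 6 higher members (10.2%), where 14.4% and 15.7% of all genes tested were. Median rescaling gave 24 lower (40.7%) and 5 higher members (8.47%), where 15.4% and 14.4% were. Against the single mutants 5 calls became 0 with the replicate block and 2 to 7 with each library left out. The share of all genes called was 1.98% in the main fit, 0.0527% with the block and 0.626% to 2.755% with each library left out. In Aptx-/- animals 12 calls became 6 without controls 1 and 3 and 5 to 15 with each library left out. The share of all genes called went from 15.6% to 4.67% and to between 3.54% and 19.7%. In Atm Nes-cre animals 9 calls became 4 with only the groups compared, 1 without controls 1 and 3 and 2 to 12 with each library left out. In cortex 28 calls became 13 with Ddx3y as a covariate and 25 to 29 with each library left out. The share of all genes called was 38.8% in the main fit, 18.3% with that covariate and 31.5% to 39.9% with each library left out. Of all genes called in cortex 62.6% were higher in the main fit, 50.3% with quantile scaling and 53.3% with median rescaling. Quantile scaling gave 14 lower (20%) and 19 higher members (27.1%), where 19.7% and 19.95% of all genes tested were. Median rescaling gave 16 lower and 16 higher members (22.9% each), where 18.6% and 21.2% were. The 24 tissue differences became 18 to 27 with each library left out, and the paired fit (replicate block) called 26, which included all 24. The replicate block within a tissue gave 24 calls for double mutants in cerebellum (40.7%) and 20 in cortex (28.6%), where 22.2% and 23.7% of all genes were called. It gave 12 for Aptx-/- (20.3%) and 8 for Atm Nes-cre animals (13.6%), where 12.5% and 6.37% of all genes were. The causes were not tested. Members without a call that changed sign in cerebellum were Kcnq3, with a difference of 0.0913 with the Ddx3y covariate, 0.0289 without controls 1 and 3 and -0.11 to 0.065 with each library left out, Kcnt1 (-0.19 to 0.0014 with each library left out, positive without double mutant 4) and Kcnd2 (-0.0663 to 0.0247, positive without control 2). In cortex Kcnab1 did so, with 0.0403 with the Ddx3y covariate. Without counts the precision of low members cannot be stated, and the 2 libraries of each single mutant limit those comparisons.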
